A study of Mus musculus with 7 samples.

Results

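The genes described here are the cyclins and kinases that carry a cell through G1 and the proteins that hold them back: the D-type cyclins Ccnd1, Ccnd2 and Ccnd3, their kinases Cdk4 and Cdk6, the E-type cyclins Ccne1 and Ccne2, the kinase inhibitors Cdkn1b (p27) and Cdkn2c (p18), and Fbxw7, which marks cyclin E for degradation. They were chosen by gene name, with earlier results of these data known. A gene was taken from probe sets annotated to that gene alone, and where it had several, the one with the highest mean over all arrays was used. All 10 genes were measured, out of 19938 genes with such a probe set. They had 12 probe sets of the 35556 on the array.

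Cyclin D bound to CDK4 or CDK6 starts the phosphorylation of the retinoblastoma protein, and cyclin E bound to CDK2 carries it on, which frees E2F factors to switch on the genes of DNA replication. p18 blocks CDK4 and CDK6, p27 blocks cyclin E-CDK2, and FBXW7 is the substrate-recognising subunit of a ubiquitin ligase that removes cyclin E, MYC and other proteins. Most adult hematopoietic stem cells (HSCs) rest outside the cycle. In mice, p18, CDK6 and FBXW7 are known to affect how readily these cells leave rest.

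RNA was measured on Affymetrix Mouse Gene ST arrays in HSCs that had been sorted from bone marrow. The mice were C57BL/6 females. Cebpa Δ/Δ cells (4 arrays) came from Cebpa flox/flox mice with the Mx1Cre transgene, and Cebpa fl/fl cells (3 arrays) from Cebpa flox/flox mice without it. Both genotypes received 3 injections of pIpC, an inducer of interferon, at 10 to 12 weeks of age and were killed on day 18. The sort kept Lin-, Sca1+, cKit+, CD150+, CD48- cells. The interferon-inducible Mx1 promoter also acts outside blood cells, and since the controls carry no Cre, the presence of Cre and the loss of Cebpa cannot be told apart. The series' design counts as many mice as arrays, 4 and 3, whereas the labels speak of triplicates of each genotype.

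The targeted gene, Cebpa, averaged 5.22 ± 0.08 in Δ/Δ HSCs and 5.64 ± 0.11 in fl/fl HSCs (log2 intensity, SD, n = 4 and 3), with no overlap between the arrays. That is 1.33-fold lower, under 1.5-fold. Both means lay below the median of the gene mean levels, 5.86, so how complete the deletion was cannot be read from them. The arrays fl/fl 1 and Δ/Δ 3 stood farthest from the others, so the counts past the study's thresholds were repeated without both. Of the antigens in the sort gate, Kit was between 9.75 and 10.38 in Δ/Δ and between 10.39 and 10.47 in fl/fl arrays. Cd48, which the gate excluded, was between 6.40 and 8.82 in Δ/Δ and between 4.62 and 5.61 in fl/fl arrays. Slamf1, the gene of CD150, overlapped, with 6.92 to 8.15 in Δ/Δ and 7.91 to 8.07 in fl/fl arrays. Ly6a, the gene of Sca1, was not among the genes measured. Cd34 and Flt3, which the gate did not use, had log2 fold changes of -0.25, with overlap, and 0.69, without overlap. Some lists of lineage markers differed as well. All 9 measured erythroid markers were higher in Δ/Δ cells past the study's thresholds (a change above 1.5-fold with an unadjusted p under 0.05, taken from limma), with intensities that summed to between 2133 and 4394 in Δ/Δ and between 471 and 921 in fl/fl arrays. Of 10 neutrophil markers 7 were lower, with sums between 755 and 1702 in Δ/Δ and between 7012 and 19528 in fl/fl arrays. In the same direction as the erythroid list, 4 of 7 T and NK cell markers and 2 of 6 macrophage markers were higher. Of 7 B cell markers and 5 megakaryocyte markers, 0 passed in either direction. Over all genes, 1.57% were higher and 0.617% lower past these thresholds. None of 9 HSC markers passed in either direction, and all 9 of their log2 fold changes were below 0 (median -0.29). Without fl/fl 1 and Δ/Δ 3, 8 erythroid, 1 T and NK cell and 2 macrophage markers were higher and 6 neutrophil markers lower. The values have no true zero, so no marker can be called absent.

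In Δ/Δ HSCs, Ccnd2 and Fbxw7 were lower and Ccne1 was higher past the study's thresholds, while the other 7 genes did not pass them. This is 1 of 10 genes higher, against 1.57% of all genes tested, and 2 of 10 lower, against 0.617%. These genes and the lists further below were chosen with earlier results of these data known. Setting their shares beside those of all genes is therefore a description, not a test. At an unadjusted p under 0.05 alone, 2 genes were higher (Ccne1 and Cdk6, against 4.4% of all genes) and 3 were lower (Ccnd1, Ccnd2 and Fbxw7, against 3.08%). After Benjamini-Hochberg adjustment over all genes in limma, 0% of genes passed, and the smallest adjusted p among the 10 was 0.412, for Ccnd2. The arrays of the 2 genotypes did not overlap for Cdk6 on the higher side (3.51% of all genes) or for Ccnd1 and Ccnd2 on the lower side (2.46%). The median log2 fold change of the 10 genes was 0.19, and 7 of the 10 lay above 0, as did 9914 of all 19938 genes. Without fl/fl 1 and Δ/Δ 3, 0 of the 10 genes passed the study's thresholds in either direction, and at an unadjusted p under 0.05 alone 1 was higher and 2 were lower.

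**Figure D1:**
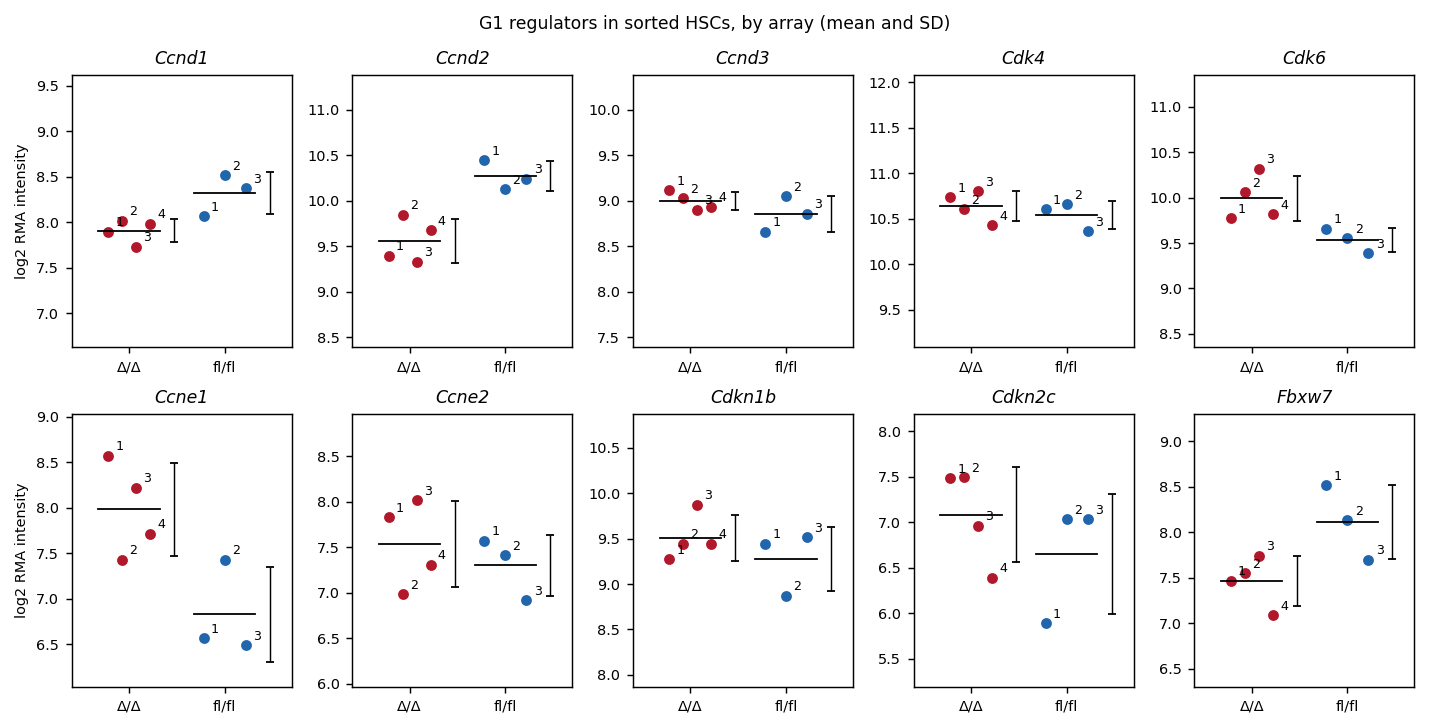
Log2 RMA intensity (y axis) of the 10 genes in Δ/Δ (red, left) and fl/fl (blue, right) HSCs. Points are arrays with their replicate number, horizontal lines are means and vertical bars are SD (n = 4 and 3), and every panel spans 3 log2 units. All Ccnd2 points of Δ/Δ arrays lie below those of fl/fl arrays, and the Ccne1 points of Δ/Δ 2 and fl/fl 2 are level.

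The D-type cyclins differed from one another. Ccnd2, the D cyclin of many proliferating blood cells, measured 9.40, 9.85, 9.33 and 9.67 in Δ/Δ 1 to 4, against 10.45, 10.13 and 10.24 in fl/fl 1 to 3. Every Δ/Δ array was below every fl/fl array, and Δ/Δ 1 and 3 were the lowest. The means were 9.56 ± 0.24 in Δ/Δ and 10.27 ± 0.16 in fl/fl (SD, n = 4 and 3), a log2 fold change of -0.71 ± 0.15 (SE), or 1.64-fold lower (limma, adjusted p = 0.412). The exact permutation test over the 35 groupings of the arrays gave 0.0286, the smallest p it can give. On arrays scaled to one distribution, fewer cells of a type that carries an RNA and less of that RNA in each cell cannot be told apart. Without both fl/fl 1 and Δ/Δ 3 the log2 fold change of Ccnd2 was -0.55, which is under 1.5-fold.

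Ccnd1, the D cyclin best known as a target of growth factor signalling, measured 7.90, 8.02, 7.73 and 7.98 in Δ/Δ 1 to 4, against 8.07, 8.52 and 8.38 in fl/fl 1 to 3. The arrays did not overlap, but the gap between the highest Δ/Δ array and fl/fl 1 was small. The log2 fold change was -0.41 ± 0.12 (SE), 1.33-fold lower (limma, adjusted p = 0.644), which misses the 1.5-fold threshold. The exact permutation p was 0.0286. Without fl/fl 2 the log2 fold change was -0.31 and the unadjusted limma p was no longer under 0.05.

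Ccnd3, the D cyclin with a known part in lymphoid and erythroid precursors, was not lower. It measured 9.12, 9.03, 8.90 and 8.93 in Δ/Δ 1 to 4, against 8.66, 9.05 and 8.86 in fl/fl 1 to 3, and the genotypes overlapped. Its log2 fold change was 0.14, with a 95% interval from -0.11 to 0.39 (limma, adjusted p = 0.747), so a 1.5-fold change in either direction lies outside the interval. Within each array, Ccnd2 minus Ccnd3 was 0.28, 0.82, 0.43 and 0.74 log2 units in Δ/Δ 1 to 4, against 1.79, 1.08 and 1.38 in fl/fl 1 to 3. That distance between the 2 probe sets was shorter in every Δ/Δ array, by 0.85 on average. Ccnd1 minus Ccnd3 was also shifted with no overlap, averaging -1.09 ± 0.13 in Δ/Δ and -0.54 ± 0.06 in fl/fl arrays (SD, n = 4 and 3). Ccnd2 minus Ccnd1 averaged 1.65 ± 0.14 in Δ/Δ and 1.95 ± 0.39 in fl/fl arrays, and its arrays overlapped. These distances are descriptions without a test, and since probe sets differ in affinity only their shift between arrays can be read.

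The kinases that the D cyclins activate were not lower. Cdk6, a kinase known in human HSCs to speed the exit from rest, measured 9.77, 10.06, 10.32 and 9.81 in Δ/Δ 1 to 4, against 9.66, 9.55 and 9.39 in fl/fl 1 to 3. All Δ/Δ arrays were above all fl/fl arrays, with Δ/Δ 3 the highest. The log2 fold change was 0.46 ± 0.15 (SE), or 1.37-fold (limma, adjusted p = 0.662), under the 1.5-fold threshold, and the exact permutation p was 0.0571. Leaving out Δ/Δ 3 gave a log2 fold change of 0.35, and leaving out fl/fl 3 gave 0.38, where the unadjusted p was no longer under 0.05.

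Cdk4, the partner kinase with the same substrates, measured 10.74, 10.60, 10.81 and 10.43 in Δ/Δ 1 to 4, against 10.60, 10.66 and 10.37 in fl/fl 1 to 3. The genotypes overlapped. The log2 fold change was 0.10, with a 95% interval from -0.18 to 0.38 (limma, adjusted p = 0.819). Cdk6 minus Cdk4 within each array averaged -0.65 ± 0.21 in Δ/Δ and -1.01 ± 0.08 in fl/fl arrays (SD, n = 4 and 3), with an overlap at Δ/Δ 1.

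**Figure D2:**
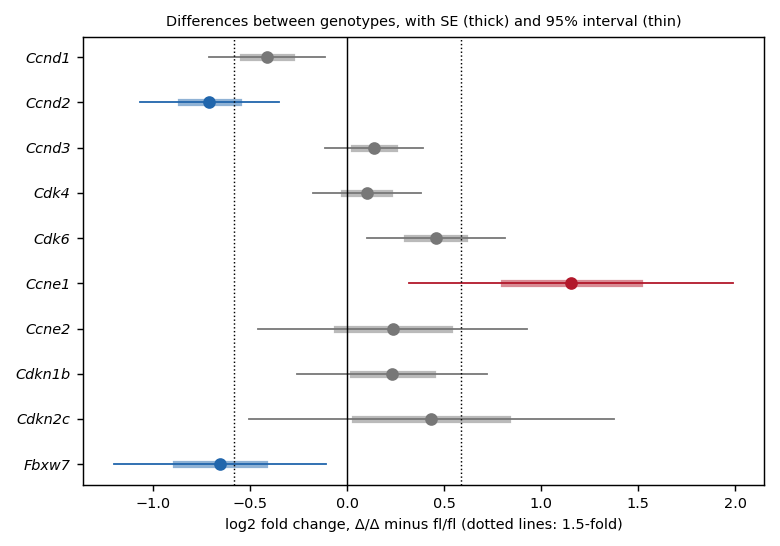
Log2 fold change of each gene, Δ/Δ minus fl/fl (x axis), with the SE of the limma fit (thick bar) and its 95% interval (thin line). Red and blue mark genes past both thresholds of the study, and dotted lines mark a 1.5-fold change. Ccne1 lies farthest to the right at 1.16 and Ccnd2 farthest to the left at -0.71.

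Ccne1, the cyclin E that activates CDK2 at the start of S phase, showed the largest difference among the 10 genes. It measured 8.57, 7.43, 8.22 and 7.71 in Δ/Δ 1 to 4, against 6.56, 7.43 and 6.49 in fl/fl 1 to 3. Δ/Δ 1 and 3 were the highest, fl/fl 1 and 3 the lowest, and Δ/Δ 2 and fl/fl 2 held the same value. The means were 7.98 ± 0.51 in Δ/Δ and 6.83 ± 0.52 in fl/fl (SD, n = 4 and 3), a log2 fold change of 1.16 ± 0.35 (SE), or 2.23-fold (limma, adjusted p = 0.644). The exact permutation p was 0.0857. The call was lost without fl/fl 1 (log2 fold change 1.02), without fl/fl 3 (0.99) and without both fl/fl 1 and Δ/Δ 3 (0.95).

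Ccne2, the other cyclin E, did not pass. It measured 7.83, 6.98, 8.02 and 7.31 in Δ/Δ 1 to 4, against 7.57, 7.41 and 6.92 in fl/fl 1 to 3. The genotypes overlapped, although Δ/Δ 1 and 3 were again the highest arrays. The log2 fold change was 0.24, with a 95% interval from -0.46 to 0.93 (limma, adjusted p = 0.828), an interval that takes in a change of 1.5-fold. Ccne1 minus Ccne2 was 0.74, 0.45, 0.20 and 0.41 in Δ/Δ 1 to 4, against -1.01, 0.02 and -0.43 in fl/fl 1 to 3. Every Δ/Δ array was above every fl/fl array, by a small margin between Δ/Δ 3 and fl/fl 2.

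The start sites of Ccne1 and Cdk6, the genes that were higher at an unadjusted p under 0.05, are shown with the 250 bases before each (RefSeq, GRCm38.p6). The Ccne1 bases lie at chr7:38107491-38107740 on the minus strand, and those of Cdk6 at chr5:3343643-3343892 on the plus strand. Capitals mark matches on either strand to the letters TCCCGC, the core of many E2F sites, or GGGCGG, the SP1 box.
Ccne1: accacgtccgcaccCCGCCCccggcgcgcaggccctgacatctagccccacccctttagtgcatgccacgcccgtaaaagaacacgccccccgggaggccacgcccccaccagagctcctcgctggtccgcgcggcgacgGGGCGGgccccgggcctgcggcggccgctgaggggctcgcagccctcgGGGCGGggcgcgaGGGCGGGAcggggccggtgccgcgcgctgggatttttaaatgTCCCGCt
Cdk6: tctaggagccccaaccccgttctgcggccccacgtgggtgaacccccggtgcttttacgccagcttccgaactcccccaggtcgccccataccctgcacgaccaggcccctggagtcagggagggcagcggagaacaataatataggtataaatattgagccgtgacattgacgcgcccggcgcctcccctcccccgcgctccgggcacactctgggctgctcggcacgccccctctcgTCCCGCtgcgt
In Ccne1 the core stood at positions -7 to -2 from the start site, and on the other strand at -47 to -42, where it overlapped an SP1 box. In Cdk6 it stood at -11 to -6. The core occurred in 16.9% and the SP1 box in 32.7% of 32851 promoters of the same length. The promoter table held 7 of the 10 genes, with 11 start sites. The core was found in 4 genes (Ccne1, Cdk6, Cdkn2c and Fbxw7) and the SP1 box in 6. Counted by start site, as the shares of all promoters are, the core was in 4 of the 11 and the SP1 box in 8. The full E2F forms TTTCCCGC, TTTGGCGC, TTTCGCGC and TTTGCCGC (1.86% of promoters) and the C/EBP form TTGCNNAA (9.56%), searched on both strands, were in none of the 11. A match, or its absence from 11 start sites, is a description of the letters in this window. Binding of C/EBPα was not examined here. Ccnd1, Ccnd2 and Ccne2 were the other genes, and their promoters were not searched. The study did map C/EBPα binding, by ChIP-seq in Lin-, Sca1+, cKit+ cells, and names Ccnd2 among the genes it lists as targets.

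The kinase inhibitors showed no difference beyond the spread between arrays. Cdkn1b measured 9.27, 9.44, 9.87 and 9.44 in Δ/Δ 1 to 4, against 9.44, 8.87 and 9.51 in fl/fl 1 to 3. Its log2 fold change was 0.23, with a 95% interval from -0.26 to 0.72 (limma, adjusted p = 0.772). Its lowest array was fl/fl 2 and its highest Δ/Δ 3. Its other probe set lay between 8.60 and 8.75 in Δ/Δ and between 8.45 and 8.75 in fl/fl arrays.

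Cdkn2c measured 7.48, 7.49, 6.96 and 6.39 in Δ/Δ 1 to 4, against 5.89, 7.03 and 7.03 in fl/fl 1 to 3. The spread inside each genotype was wider than for any other of the 10 genes, with SDs of 0.52 in Δ/Δ and 0.66 in fl/fl. The log2 fold change was 0.43, with a 95% interval from -0.51 to 1.38 (limma, adjusted p = 0.778). Without fl/fl 1 the log2 fold change was 0.05.

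Fbxw7 measured 7.47, 7.55, 7.74 and 7.09 in Δ/Δ 1 to 4, against 8.52, 8.14 and 7.70 in fl/fl 1 to 3. The genotypes overlapped by a small margin, since Δ/Δ 3 was above fl/fl 3. The means were 7.46 ± 0.27 in Δ/Δ and 8.12 ± 0.41 in fl/fl (SD, n = 4 and 3), a log2 fold change of -0.65 ± 0.23 (SE), 1.57-fold lower (limma, adjusted p = 0.663), with an exact permutation p of 0.0571. The call was lost in 4 of the 7 fits that left out an array (array 1 or 4 of Δ/Δ, array 1 or 2 of fl/fl), with a log2 fold change of -0.45 without fl/fl 1, and in 9 of 17 alternatives in all. This probe set was annotated to 2 cDNA records and to 0 RefSeq transcripts. The other probe set of the gene, annotated to 4 RefSeq transcripts, held between 6.20 and 6.23 in Δ/Δ arrays and between 6.23 and 6.32 in fl/fl arrays, with 3 distinct values in 7 arrays and a log2 fold change of -0.04. The lower value of Fbxw7 in Δ/Δ HSCs therefore rests on 1 of its 2 probe sets.

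Ccne1 and Ccnd2 tended to run opposite ways, also inside a genotype, although array 1 was above array 3 for both genes in each genotype. After each genotype's mean was taken off, their correlation over the 7 arrays was -0.84, the most negative of the 45 pairs of these genes. Ccnd1 and Ccnd2, both lower in Δ/Δ cells, had a correlation of 0.04 on that scale. These correlations are over 7 points that share the same arrays and their scaling.

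Scores of several marker lists were set beside Ccne1 and Ccnd2 over the arrays. Inside the genotypes some lists followed these genes only in part. The erythroid score, which averages over its 9 genes how far each lay from its own mean of the 7 arrays in log2 units, was 1.57, 0.51, 1.33 and 0.51 in Δ/Δ 1 to 4, against -1.66, -0.64 and -1.60 in fl/fl 1 to 3. Δ/Δ 1 and 3 had the highest scores, the highest Ccne1 and the lowest Ccnd2, and among fl/fl arrays, fl/fl 2 had the highest score, the highest Ccne1 and the lowest Ccnd2. The score of the 10 neutrophil markers was -1.74, -1.76, -0.69 and -1.45 in Δ/Δ 1 to 4, against 2.01, 2.96 and 0.67 in fl/fl 1 to 3. Between the genotypes it ran opposite to Ccne1. Its order among the fl/fl arrays was that of Ccne1, but among the Δ/Δ arrays it was highest in Δ/Δ 3 and its order differed. The macrophage score was 0.89, -0.09, 0.65 and 0.16 in Δ/Δ 1 to 4, which is the order of Ccne1 there, against -0.63, -0.50 and -0.49 in fl/fl 1 to 3. Among the fl/fl arrays it was highest in fl/fl 3, where Ccne1 was lowest. The T and NK cell score was 0.54, 0.10, 0.80 and 0.05 in Δ/Δ 1 to 4, against -0.63, -0.34 and -0.53 in fl/fl 1 to 3, and was also highest in Δ/Δ 1 and 3 and, among fl/fl arrays, in fl/fl 2. The HSC score was -0.31, 0.15, -0.62 and 0.26 in Δ/Δ 1 to 4, against 0.15, 0.12 and 0.24 in fl/fl 1 to 3, and was lowest in the arrays with the lowest Ccnd2, Δ/Δ 1 and 3. The part of erythroid, neutrophil, macrophage or T and NK cell RNA in the differences of Ccne1, Ccnd2, Cdk6 and Fbxw7 was not tested.

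**Figure D3:**
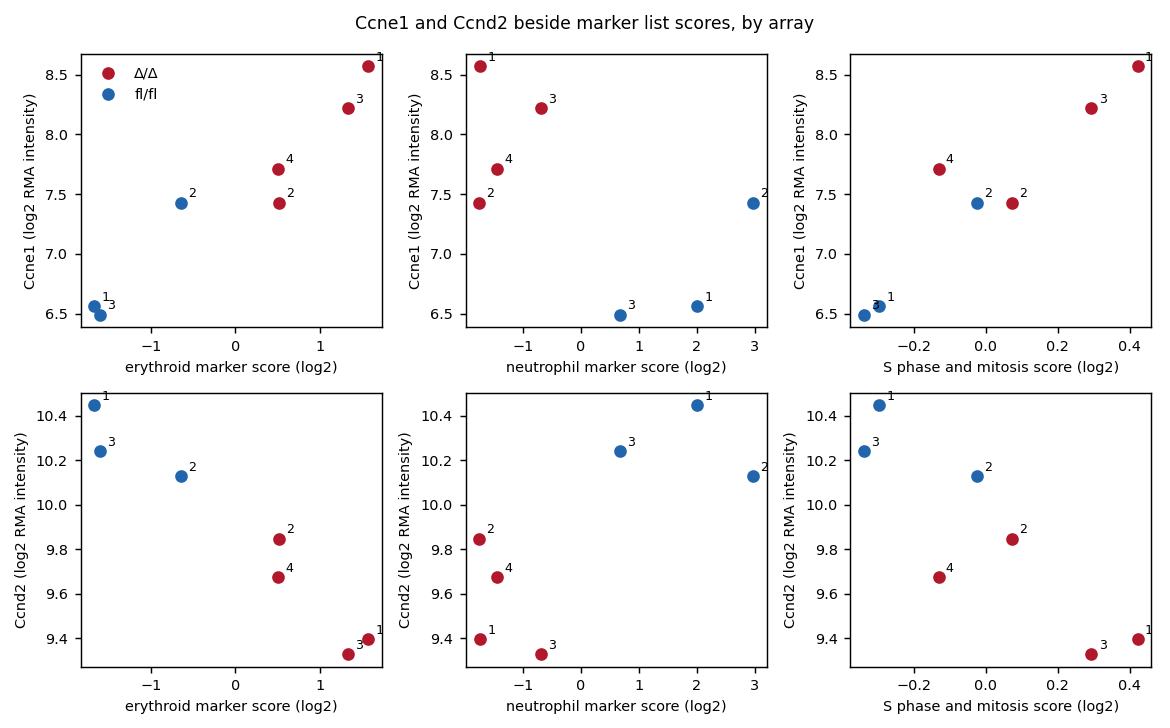
Ccne1 (upper row) and Ccnd2 (lower row), as log2 RMA intensity on the y axis, against the score of the erythroid markers, the neutrophil markers and the S phase and mitosis genes (x axes, log2), in Δ/Δ (red) and fl/fl (blue) arrays with their replicate numbers. Δ/Δ 1 and 3, with erythroid scores of 1.57 and 1.33, hold the highest Ccne1 and the lowest Ccnd2.

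The genes most like these in pattern were sought among the 9968 genes above the median level, by Pearson's r over the 7 arrays. For Ccnd2 they were Atp2a3, a calcium pump of the endoplasmic reticulum (0.986), Snn (0.979) and Trp53i13 (0.979). For Ccne1 they were Hebp1, a heme-binding protein (0.995), Rb1, the retinoblastoma protein itself (0.994), and Cwc15, a splicing factor (0.993). For Fbxw7 they were 5730455P16Rik (0.984), Vps41 (0.975) and Zfp74 (0.974). Hebp1 measured between 6.62 and 8.12 in Δ/Δ and between 5.38 and 6.54 in fl/fl arrays. These values of r describe the 7 arrays, which also differ by genotype.

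Genes around this pathway were followed in 7 lists. In the S phase and mitosis list, 27 of 28 genes were measured and all 27 had a log2 fold change above 0, with a median of 0.41, beside a median of 0.00 over all genes. Of these, 9 were higher at an unadjusted p under 0.05, 3 passed the study's thresholds and 0 were lower at either. The 3 were Birc5, an inhibitor of apoptosis that works in mitosis (0.95, adjusted p = 0.393), Bub1, a spindle checkpoint kinase (0.81, adjusted p = 0.663), and Ccnb2, a mitotic cyclin (0.73, adjusted p = 0.663). The list's DNA replication genes, looked at after their values were seen, were not among the 9. These were Pcna, Mcm2 to Mcm7, Cdc6, Cdt1, Gins2, Rrm1, Rrm2 and Tyms. Their log2 fold changes ran from 0.05 for Mcm6 to 0.60 for Rrm2. Birc5 measured 9.43, 8.89, 9.48 and 8.94 in Δ/Δ 1 to 4, against 8.17, 8.45 and 8.09 in fl/fl 1 to 3, with no overlap. The list's score was 0.42, 0.07, 0.29 and -0.13 in Δ/Δ 1 to 4, against -0.30, -0.02 and -0.34 in fl/fl 1 to 3, so Δ/Δ 4 lay below fl/fl 2. Birc5 kept its call in every fit that left out an array. Bub1 lost it in 4 of the 7 and Ccnb2 in 5, among them the fit without fl/fl 1, where Ccnb2 had a log2 fold change of 0.46. Without both fl/fl 1 and Δ/Δ 3, Bub1 (0.43) and Ccnb2 (0.35) did not pass, and the 2 genes of the list that did were Birc5 and Plk1, a mitotic kinase named here after its values were seen. The 2 arrays with the highest scores, Δ/Δ 1 and 3, were also those with the highest erythroid scores, and the part of erythroid RNA in this list was not tested.

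Of the 13 pocket protein and E2F genes, 2 were higher past the study's thresholds and 0 were lower, with a median of 0.11. E2f2, an activator of the family, measured 6.97, 6.43, 7.10 and 6.68 in Δ/Δ 1 to 4, against 5.77, 6.10 and 5.22 in fl/fl 1 to 3 (1.10 ± 0.25, SE, adjusted p = 0.465). No arrays overlapped. E2f8, a repressor of the family, measured 8.87, 8.28, 8.49 and 7.96 in Δ/Δ 1 to 4, against 6.79 and 7.27 in fl/fl 1 and 3, and fl/fl 2 was just above Δ/Δ 4 (1.05 ± 0.33, SE, adjusted p = 0.644). Rb1 had a log2 fold change of 0.55 (adjusted p = 0.663), under 1.5-fold. E2f2 kept its call in every fit that left out an array, whereas E2f8 lost it without fl/fl 1 (0.77) or fl/fl 3 (1.01). Without both fl/fl 1 and Δ/Δ 3, 1 gene of this list passed, E2f2.

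Of the 9 genes around CDK2, only Ccna2, the cyclin that takes over CDK2 in S phase, passed (0.63, adjusted p = 0.663), and it lost the call in 5 of the 7 fits that left out an array (0.45 without fl/fl 1). Without both fl/fl 1 and Δ/Δ 3, 0 of these 9 genes passed. Cdk2 itself had a log2 fold change of -0.16 (adjusted p = 0.665) and the phosphatase Cdc25b one of 0.23 (adjusted p = 0.743). Of the 14 genes of the ubiquitin ligases that remove G1 regulators, 0 passed the study's thresholds and 1 had an unadjusted limma p under 0.05. Cks1b, the cofactor that lets SKP2 recognise p27, was 0.47 higher with no overlap (adjusted p = 0.644, under 1.5-fold). Fbxo4 had a log2 fold change of -0.24 (adjusted p = 0.669) and Ubac1 one of 0.55 (adjusted p = 0.703).

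Of 12 further substrates of FBXW7, 0 passed in either direction, 0 had an unadjusted limma p under 0.05, and the median was -0.06. The 3 with the smallest p were Mycn (-0.15, adjusted p = 0.745), Mtor (-0.18, adjusted p = 0.783) and Myb (-0.05, adjusted p = 0.879), whose sign turned without Δ/Δ 3. Jun, named after its values were seen, was 9.98 in Δ/Δ 4 and 10.13 in fl/fl 3, and between 6.75 and 6.81 in the other Δ/Δ arrays and between 6.67 and 7.03 in the other fl/fl arrays. FBXW7 acts on proteins, which arrays do not measure. Of the 4 other inhibitors measured of 5, 0 passed and 0 had an unadjusted limma p under 0.05, with a median of 0.03. Cdkn1a, the gene of p21, was not measured. Cdkn2a averaged 4.70 in Δ/Δ and 4.69 in fl/fl arrays, and Cdkn2b 5.41 and 5.36. These lie below the median of the gene mean levels, 5.86, so little can be read from their lack of change. Cdkn2d, the INK4 protein p19, had a log2 fold change of 0.29 (adjusted p = 0.665), Cdkn1c (p57) one of -0.23 (adjusted p = 0.745) and Cdkn2b (p15) one of 0.05 (adjusted p = 0.802).

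Of 28 regulators of the exit from rest, 26 were measured and 1 passed. Bcl6, a transcriptional repressor, measured 6.45, 7.22, 5.87 and 6.41 in Δ/Δ 1 to 4, against 5.07, 5.46 and 5.91 in fl/fl 1 to 3 (1.01 ± 0.34, SE, adjusted p = 0.663). Δ/Δ 3 lay just below fl/fl 3, and the call was lost without fl/fl 1 (0.80) and without fl/fl 2. Without both fl/fl 1 and Δ/Δ 3 it was kept. Ccng1 had a log2 fold change of 0.45 (adjusted p = 0.667) and Myct1 one of -0.54 (adjusted p = 0.688). The list's median was -0.11. None of the genes in these 7 lists passed the adjusted threshold in limma, and the smallest adjusted p in them was 0.393, for Birc5.

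**Figure D4:**
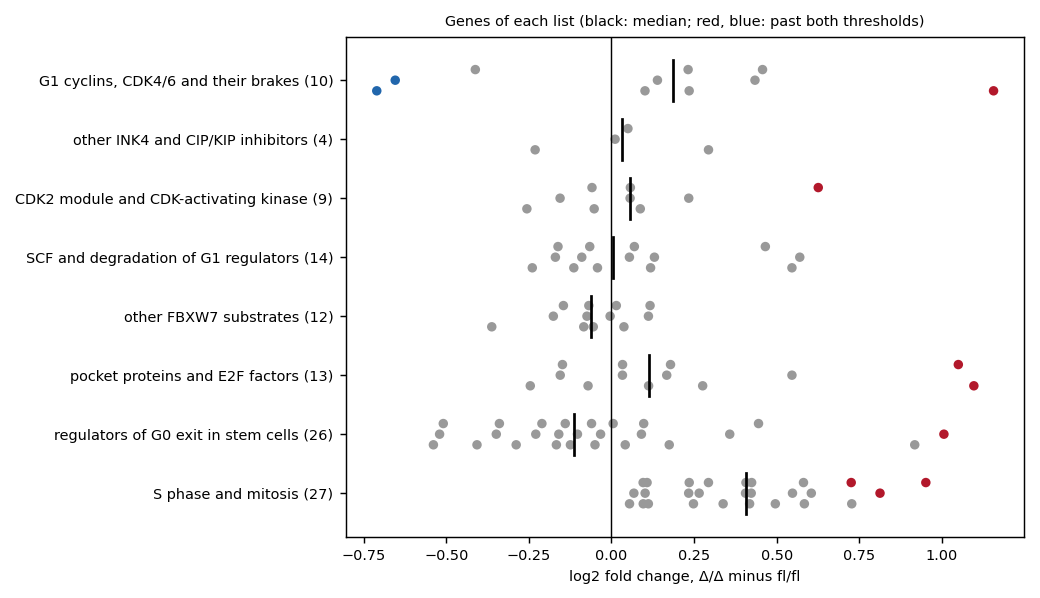
Log2 fold changes, Δ/Δ minus fl/fl (x axis), of the 10 genes and of each list (number measured in brackets). Each point is a gene, black lines are medians, and red and blue mark genes higher and lower past both thresholds of the study. All 27 S phase and mitosis genes lie to the right of 0.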

How the data were processed

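RNA of sorted HSCs was amplified (NuGEN), biotin-labelled and measured on Affymetrix Mouse Gene ST arrays. The authors made the deposited intensity values by RMA, the Robust Multichip Average, for which the methods name Partek Genomics Suite and the submitters' notes RMA and affy. RMA gives all arrays one distribution, which hides any change in the total RNA of a cell. A genome build is not given in the sources used here. The deposited values were linear (1.51 to 9840, array medians 46.2 to 50.4), whereas log2 values had been assumed, so log2 was taken with no pseudocount. Precision is limited by the number of arrays.

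Of 35556 probe sets, 21789 had 1 gene symbol, 1621 had several and 12146 were unnamed here. The test was limma's (version 3.58.1 in R 4.3.3, lmFit then eBayes), Δ/Δ minus fl/fl, on genotype alone and with Benjamini-Hochberg adjustment over 19938 genes at 0.05. The fit was tested on simulated data. The study's thresholds (p under 0.05, over 1.5-fold) were applied to limma's unadjusted p, since the study names no test for the arrays. The exact permutation test was two-sided over 35 groupings. Intervals are 95% intervals of the fit. RMA gave a value shared exactly by 2 or more arrays in 63.6% of genes.

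The members, lists and tests were chosen with earlier results of these data known. Named genes were all 10 members, from each pathway list those past the study's thresholds and up to 3 in all by the smallest p, the 3 genes most alike to Ccnd2, Ccne1 and Fbxw7, Cebpa and the sort gate genes. Other list genes are given as counts. Those named beyond this rule were named after their values were seen. Alternatives were another scaling (array medians, cyclic loess), raising low values to percentile 25, no moderation of the variance, array weights, leaving out arrays, a replicate block, the mean over probe sets, the other probe sets and genes above the median level only. Leaving out 2 arrays for the pathway and marker lists was chosen after seeing the data. Equal replicate numbers were not treated as pairs in the main fit, and 0 columns of per-sample values were unused.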

Additional observations from a re-analysis of the deposited data

Results flagged for a closer look

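In 4 of 45 named genes, 1 of the 4 Δ/Δ arrays stood apart from the other 3, by a gap that took up more of the group's range than Dixon's limit allows. Chance gives this in about 1 of 20 groups of independent, normally distributed values without ties. Values shared between arrays, as in Cdkn2b and Mtor, and genes picked for likeness depart from that, so the rate is only a rough guide here. Vps41 was 7.62, 7.64, 7.64 and 7.42 in Δ/Δ 1 to 4, with a gap of 0.894 of the range, and 5730455P16Rik was 6.26 in Δ/Δ 4 and at most 6.53 in the others, with 0.877. In both, Δ/Δ 4 was the low array. Both genes were named for their likeness to Fbxw7, which was also lowest there, so the shared array follows from that choice. Mtor was 7.72, 7.72, 7.13 and 7.75, with 0.95, and Δ/Δ 3 was low. Cdkn2b was 5.41, 5.41, 5.43 and 5.41, with a gap equal to the whole range (1), over a difference of 0.02 log2 units. None of the 10 G1 genes stood out in this way.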

How the results depend on the processing

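All 162 alternative values of the 10 genes kept their direction, and 148 stayed on the same side of the thresholds, while 14 lost the call. Not all of these values could change direction. Raising low values, omitting moderation of the variance and testing only genes above the median level left each gene's fold change as it was. So did the mean of all probe sets for genes with 1 probe set. The replicate block repeated the fold changes of the fit without the Δ/Δ array it drops. The 162 values are therefore not 162 separate checks of direction. The 14 were values of Ccnd2, Ccne1 and Fbxw7. Over all alternatives the log2 fold change was -0.81 to -0.55 for Ccnd2 and 0.95 to 1.46 for Ccne1, and -0.86 to -0.04 for Fbxw7, whose lowest size came from its other probe set. Of the 10 genes, 1 was lower without moderation of the variance and 1 with the mean of all probe sets (-0.35 for Fbxw7), and 0 were higher and 0 lower without both fl/fl 1 and Δ/Δ 3. Leaving out single arrays left 0 to 1 higher and 1 to 2 lower. No member passed the adjusted threshold under any alternative that was run. Over all genes, 169 were higher past the study's thresholds without both arrays, against 314 with all arrays, and leaving out single arrays gave 223 to 404 higher and 93 to 157 lower. After adjustment, leaving out single arrays gave 0 to 1 higher and 0 to 3 lower, and testing only genes above the median level gave 3 higher and 2 lower. Without both arrays, 0 CDK2 genes and 1 pocket protein or E2F gene were higher. Leaving out single arrays gave Myb log2 fold changes from -0.11 to 0.0098, the last without Δ/Δ 3. The cause of these changes was not tested beyond the smaller number of arrays or genes.

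The deviations of equally numbered arrays had correlations of -0.02, 0.10 and -0.18 for numbers 1, 2 and 3. These show no strong shared deviation, but they cannot tell whether equally numbered samples were paired. Arrays with different numbers reached 0.33 (Δ/Δ 4 and fl/fl 3), 0.27 (Δ/Δ 3 and fl/fl 1) and 0.18 (Δ/Δ 1 and fl/fl 2). With the replicate number as a block, which drops Δ/Δ 4, 0 members were higher (Ccne1 had a log2 fold change of 1.25) and 1 was lower (Ccnd2).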
